A study of Mus musculus with 6 samples.

Results

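Ribosomal proteins and the initiation and elongation factors of translation were compared between the hearts of diabetic mice given vehicle and those given FGF1ΔHBS, with 3 mice in each group. The genes were taken by symbol alone, as Rpl, Rps, Mrpl, Mrps, Eif or Eef followed by a number (or Rplp or Rpsa), without S6 kinases and without pseudogenes. The rule took 38 of the 4132 genes in the table analysed here. They are 10 proteins of the cytosolic ribosome, 14 proteins of the mitochondrial ribosome and 14 translation factors. The table holds only part of the transcriptome, so most ribosomal protein genes were not analysed here.

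All mice were male *db/db* mice on the C57BLKS/J background (genotype lepr-/-), which lack a functional leptin receptor in every tissue and become obese and diabetic. FGF1ΔHBS, the FGF1 variant of the labels, is recombinant human fibroblast growth factor 1 with a changed heparin-binding site, made to be non-mitogenic. It was injected intraperitoneally at 0.5 mg/kg on alternate days for 16 weeks from the age of 10 weeks, while the vehicle mice received saline. Hearts were taken at 26 weeks. Both groups carry the mutation, and no library of a non-diabetic mouse is among the 6. Poly(A) RNA of heart tissue was sequenced, 1 library per mouse, and p-values measure the spread between these mice.

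The ribosome joins amino acids in the order set by an mRNA. In the cytosol its small subunit reads the mRNA and its large subunit forms the peptide bond, with initiation factors to place the ribosome on the start codon and elongation factors to move it along. Mitochondria keep a separate ribosome, built from nuclear-encoded proteins, which makes the core subunits of the respiratory chain encoded in mitochondrial DNA. In the heart, ribosome content and the rate of protein synthesis are known to follow hypertrophic growth and insulin and growth factor signalling through mTOR.

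Values are FPKM, fragments counted per length of transcript and relative to the total mapped, so levels of different genes are compared per length of transcript. All 38 genes were detected in every library, and all had the mean of at least 1 FPKM needed for the test, as did 2041 genes of the table. Fold changes are differences of log2(FPKM + 1), FGF1ΔHBS minus vehicle, which understate the change of genes with low values. The cardiomyocyte markers *Tnnt2*, *Tnnc1* and *Actc1* were at 2153 to 5541 FPKM in all 6 libraries, *Nppa*, the natriuretic peptide gene of the stressed heart, was at 22.7 to 430.5 FPKM, and the adipocyte marker *Adipoq* was at 1.21 FPKM or less. The libraries had relative depths of 1.0 to 1.2, with the 1.2 in vehicle replicate 2, and the groups overlapped in depth. The summed FPKM of all genes tested was 151960 in vehicle replicate 2 and 215460 to 232500 in the other libraries. The effect of this lower sum on single genes was not tested. The typical gene was not lower in vehicle replicate 2, where the median log2 deviation from each gene's mean over all libraries was 0.034.

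The transcripts of the cytosolic ribosomal proteins were more abundant on average with FGF1ΔHBS, while those of the mitochondrial ribosome and of the translation factors lay around no difference. No gene of the 38 had an adjusted p under 0.05 (limma, Benjamini-Hochberg over all 2041 genes). Of all genes tested 2 passed, or 0.0980%. At an unadjusted p under 0.05 there were 7 of the 38, against 17.1% of all genes tested. Of these, 6 were higher with FGF1ΔHBS, against 7.10% of all genes tested, and 1 was lower, against 10.0%. The groups did not overlap in 13 of the 38 genes, against 24.3% of all genes tested. FGF1ΔHBS lay above vehicle in 10, against 10.7%, and below in 3, against 13.6%. In heart tissue as a whole, fewer cells of a type and less RNA per cell cannot be told apart.

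All 10 cytosolic genes had a higher mean with FGF1ΔHBS, against 45.2% of all genes tested. The difference for *Rps2* turned to -0.05 after quantile normalization, and the other 9 stayed above 0 under each of the 16 alternatives. Their median log2 fold change was 0.21, from 0.11 to 0.57, beside -0.02 over all genes tested. In 7 of the 10 every FGF1ΔHBS mouse was above every vehicle mouse, against 10.7% of all genes tested. At an unadjusted p under 0.05, 5 were higher and 0 lower, against 7.10% and 10.0% of all genes tested. The adjusted p of the 10 ran from 0.102 to 0.547 (limma, Benjamini-Hochberg).

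**Figure D1:**
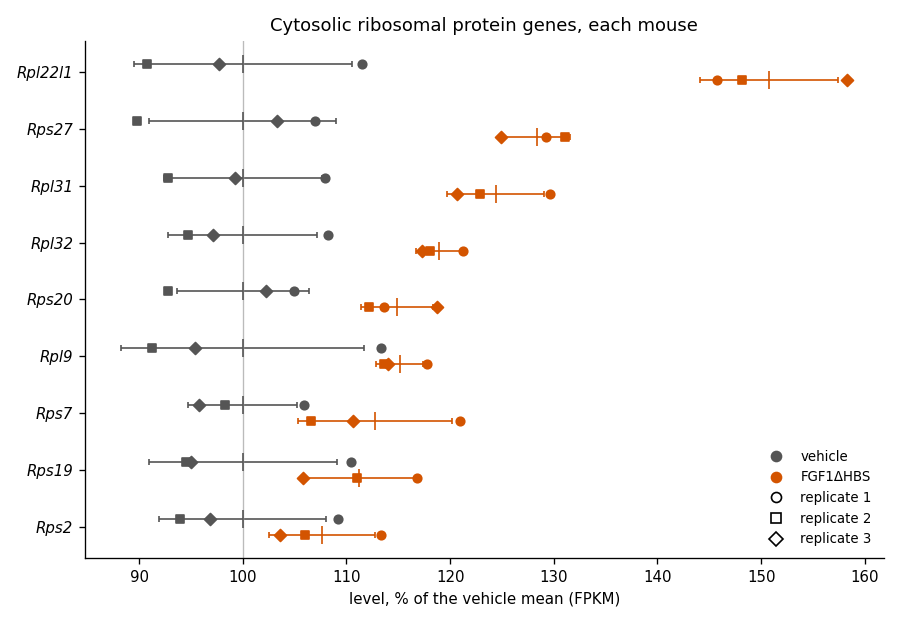
Levels of cytosolic ribosomal protein genes as a percentage of the vehicle mean of each gene, from FPKM, with 1 point per mouse and the mean ± SD of each group of 3. The FGF1ΔHBS points lie above all vehicle points for 7 genes and overlap them for *Rps19* and *Rps2*.

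*Rpl22l1* (ENSMUSG00000039221, chr3:28805436-28807424, plus strand, GRCm38) had the largest difference of the 38 genes. It encodes a large-subunit protein that is a close relative of Rpl22 and can take its place. The vehicle mice had 23.2, 18.9 and 20.3 FPKM and the FGF1ΔHBS mice 30.3, 30.8 and 32.9 FPKM. The groups were far from overlapping, and every FGF1ΔHBS heart was at least 7 FPKM above the highest vehicle heart. The means were 20.8 ± 2.18 and 31.3 ± 1.39 FPKM (SD, n = 3 each), a ratio of 1.51 and a log2 fold change of 0.57 (SE 0.088). The adjusted p was 0.102 with limma. It was 0.0422 without vehicle replicate 1 and 0.032 without vehicle replicate 3, where 84 of all genes passed. Without each of the other mice it was 0.214 to 0.272, and with the replicate number as a block 0.273. The partner gene *Rpl22* was not analysed here. The deposited locus of *Rpl22l1* runs 6561 bases past the annotated gene.

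*Rps27* (ENSMUSG00000090733, chr3:90212522-90213651, minus strand), which encodes a zinc-finger protein of the small subunit, was at 249.7, 209.7 and 241 FPKM with vehicle. With FGF1ΔHBS it was at 302, 306 and 292 FPKM. Each treated heart was above each vehicle heart, and the lowest vehicle value belonged to replicate 2. The log2 fold change was 0.36 (SE 0.082, limma adjusted p = 0.116), with means of 233 ± 21.1 and 299.9 ± 7.46 FPKM (SD, n = 3 each).

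*Rpl31* (ENSMUSG00000073702, chr1:39367842-39371911, plus strand) encodes a large-subunit protein at the exit of the peptide tunnel. It was at 154, 133 and 142 FPKM with vehicle and at 185, 176 and 173 FPKM with FGF1ΔHBS, again without overlap. The log2 fold change was 0.31 (SE 0.076, limma adjusted p = 0.116).

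*Rpl32* (ENSMUSG00000057841, chr6:115805505-115808747, minus strand), a large-subunit gene, was at 193, 169 and 173 FPKM with vehicle and at 217, 211 and 209 FPKM with FGF1ΔHBS. Vehicle replicate 1 came closest to the treated mice. Its log2 fold change was 0.25 (SE 0.072, limma adjusted p = 0.153). The deposited loci of *Rpl31* and *Rpl32* run 106844 and 30967 bases past the annotated genes.

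*Rps20*, *Rpl9* and *Rps7* also did not overlap between the groups, by smaller margins. *Rps20*, which encodes a small-subunit protein, was at 49.4, 43.7 and 48.2 FPKM with vehicle and at 53.5, 52.8 and 55.9 FPKM with FGF1ΔHBS (log2 fold change 0.20). *Rpl9*, a large-subunit gene, was at 279.6, 225 and 235 FPKM with vehicle and at 290.5, 280.4 and 281 FPKM with FGF1ΔHBS (0.21). A difference of less than 1 FPKM separated vehicle replicate 1 from the lowest treated mouse for *Rpl9*. *Rps7*, which encodes a small-subunit protein with a role in processing ribosomal RNA, was at 201, 186 and 182 FPKM with vehicle and at 229, 202 and 209.8 FPKM with FGF1ΔHBS (0.17).

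The groups overlapped for *Rps19* and *Rps2*, where vehicle replicate 1 reached the range of the treated mice. *Rps19*, whose human counterpart is mutated in Diamond-Blackfan anaemia, was at 95.9, 82.0 and 82.5 FPKM with vehicle and at 101, 96.3 and 91.9 FPKM with FGF1ΔHBS. *Rps2*, which lines the path of the mRNA into the small subunit, was at 295, 254 and 262 FPKM and at 307, 287 and 280.3 FPKM. The adjusted p was 0.387 for *Rps19* and 0.547 for *Rps2* (limma).

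Vehicle replicate 1 was the highest vehicle mouse for all 10 cytosolic genes, and vehicle replicate 2 was the lowest for 8. Vehicle replicate 2 was also the library with the lowest summed FPKM of all genes tested. The typical gene was not low in it. Its median log2 deviation from each gene's mean, over all genes tested, was 0.034, the highest of any library. Its median ratio size factor, 1.035, was also the largest. After median ratio scaling the median log2 fold change of the 10 genes was 0.244. The summed FPKM of the 10 genes was 1854.1, 1583 and 1631 in the vehicle mice and 2037.0, 1952 and 1943.0 in the FGF1ΔHBS mice, a difference of 17.0% between the means. Without vehicle replicate 1, all 10 genes were higher at an unadjusted p under 0.05, and without any other single mouse 4 or 5 were. Among all genes tested, 156 were higher at that p without vehicle replicate 1, and 108 to 167 without any other single mouse. Ribosomal protein genes have many near-identical processed pseudogenes, and how reads that match several copies were assigned is not given in the sources used here, so their levels are uncertain to that extent. By the two-sided exact permutation test, 7 of the 10 reached 0.1, the smallest p that 3 mice against 3 allow. These are the same 7 genes without overlap, which is what a p of 0.1 means here, so the test adds nothing to that count. Of all genes tested, 24.3% did not overlap in either direction. The 10 genes were measured in the same mice and are not independent results.

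**Figure D2:**
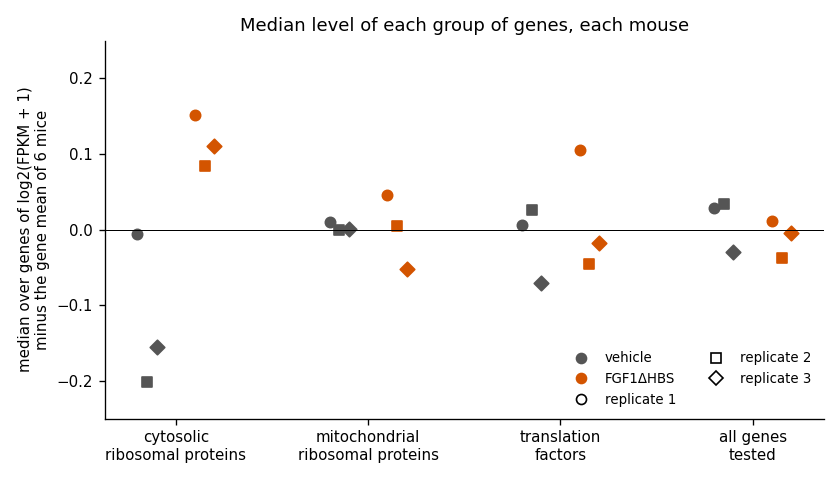
Median log2 deviation of each gene group from the gene's mean over all libraries, with 1 point per mouse. For the cytosolic ribosomal proteins the vehicle mice lie at -0.01, -0.20 and -0.15 and the FGF1ΔHBS mice at 0.15, 0.08 and 0.11, and for the other gene groups the groups of mice overlap.

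Transcripts of cytosolic ribosomal proteins are known for a run of pyrimidines at their 5′ end, the 5′ terminal oligopyrimidine or TOP tract, through which mTOR and Larp1 control their translation. The 50 bases around the start of transcription are shown for genes with larger and smaller differences of their means, so that the tract can be compared (RefSeq, GRCm38.p6, 25 bases on each side of the start, 5′ to 3′ on the gene's strand). Capitals mark the longest unbroken run of C and T. The windows are chr3:28805483-28805532 for *Rpl22l1* and chr1:39367826-39367875 for *Rpl31* (plus strand), then chr3:90213624-90213673 for *Rps27*, chr12:28635929-28635978 for *Rps7* and chr5:65391407-65391456 for *Rpl9* (minus strand). They are chr3:95871490-95871539 for *Mrps21* (minus strand), chr10:81176606-81176655 for *Eef2* and chr1:37997985-37998034 for *Eif5b* (plus strand).
Rpl22l1: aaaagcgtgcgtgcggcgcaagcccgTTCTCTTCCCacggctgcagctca
Rpl31: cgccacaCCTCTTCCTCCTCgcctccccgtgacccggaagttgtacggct
Rps27: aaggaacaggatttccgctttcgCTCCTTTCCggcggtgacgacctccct
Rps7: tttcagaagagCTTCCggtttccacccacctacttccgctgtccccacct
Rpl9: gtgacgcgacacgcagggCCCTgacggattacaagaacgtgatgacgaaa
Mrps21: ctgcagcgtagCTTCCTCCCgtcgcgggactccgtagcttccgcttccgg
Eef2: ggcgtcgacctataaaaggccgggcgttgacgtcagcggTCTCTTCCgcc
Eif5b: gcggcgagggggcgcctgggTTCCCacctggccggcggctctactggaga

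The longest run spans or lies next to the start in *Rpl22l1* and *Rps27*, with 10 and 9 bases, and lies before it in *Rpl31*, with 13. A shorter unbroken run of C and T, not marked, spans the start in *Rpl31*. The RefSeq start used for *Rpl22l1* lies 72 bases downstream of its GENCODE 5′ end. *Eef2*, a known TOP mRNA, has a run of 8 bases that lies after the annotated start. The longest run near the annotated start is 5 in *Rps7* and 4 in *Rpl9*. An annotated start need not be the 5′ end of the transcripts measured, so a short run does not show that the tract is absent. Of the 33 genes with a RefSeq promoter window, 24 have a start within 100 bases of the GENCODE 5′ end and were searched. *Rpl32*, *Rps20*, *Eif2b3* and *Eif3i* are among those with no window. A run of at least 8 C or T on the gene's strand stands in 3 of 5 cytosolic windows, 4 of 10 mitochondrial windows and 2 of 9 factor windows, against 19.3% of 21263 protein-coding windows of the same length. In the whole window of 250 bases before to 50 after the start, on either strand, CCGGAA, the core of ETS-family sites, stands in 3 of 5, 7 of 10 and 4 of 9, against 18.7%. The GC box GGGCGG stands in 2 of 5, 3 of 10 and 6 of 9, against 46.2%, and TATAAA in 1 of 5, 0 of 10 and 1 of 9, against 12.6%. These percentages are over all protein-coding windows, not only those within 100 bases of a GENCODE 5′ end, so the sets were not chosen alike.

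The 14 genes of the mitochondrial ribosome showed no common direction. With FGF1ΔHBS 6 had a higher and 8 a lower mean on the log2 scale, against 45.2% and 54.8% of all genes tested. The median log2 fold change was -0.02, from -0.13 to 0.22, near that of all genes tested. At an unadjusted p under 0.05, 1 was higher and 0 lower, against 7.10% and 10.0% of all genes tested. The adjusted p ran from 0.148 to 0.999 (limma). The groups did not overlap in 4 of the 14 genes, against 24.3% of all genes tested. FGF1ΔHBS lay above vehicle in 2, against 10.7%, and below in 2, against 13.6%.

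*Mrps21* (ENSMUSG00000054312, chr3:95862634-95871519, minus strand), which encodes a protein of the small mitochondrial subunit, was the most abundant gene of this group. It was at 101.8, 98.3 and 100.6 FPKM with vehicle and at 122, 118 and 111 FPKM with FGF1ΔHBS. The vehicle mice were within 4 FPKM of each other, and all treated mice were above them (log2 fold change 0.22, SE 0.062, limma adjusted p = 0.148). With GC content and length regressed out, the log2 fold change was 0.03 (limma adjusted p = 0.906). *Mrpl11*, of the large mitochondrial subunit, was at 10.6, 10.3 and 9.85 FPKM and at 11.3, 11.2 and 11.9 FPKM, without overlap (0.15, limma adjusted p = 0.336).

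*Mrpl27* and *Mrps9* lay on the other side. *Mrpl27*, of the large subunit, was at 26.8, 28.2 and 25.9 FPKM with vehicle and at 24.2, 25.4 and 23.9 FPKM with FGF1ΔHBS (log2 fold change -0.13, limma adjusted p = 0.353). *Mrps9*, of the small subunit, was at 45.8, 47.5 and 48.2 FPKM with vehicle and at 45.8, 41.8 and 42.2 FPKM with FGF1ΔHBS (-0.12, limma adjusted p = 0.378). For *Mrps9* the highest treated and the lowest vehicle mouse were almost at the same level.

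The other 10 mitochondrial genes overlapped between the groups, with log2 fold changes from -0.06 (*Mrpl20*, *Mrpl53*) to 0.07 (*Mrpl33*). *Mrpl37*, of the large subunit, had a mean of 33.7 FPKM in both groups. *Mrps23*, a small-subunit gene and among the most abundant here, was at 69.1, 68.0 and 71.0 FPKM with vehicle and at 71.1, 70.4 and 64.9 FPKM with FGF1ΔHBS. *Mrpl58*, a peptidyl-tRNA hydrolase built into the large subunit that frees stalled mitochondrial ribosomes, differed by -0.05. The deposited loci of *Mrpl27*, *Mrpl33*, *Mrpl53* and *Mrpl17* also contain other protein-coding genes on the same strand, whose reads may be counted with theirs.

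The summed FPKM of the mitochondrial genes was 609.9, 606.8 and 609.8 with vehicle and 645.5, 610.9 and 602.4 with FGF1ΔHBS. The groups overlapped, and the means differed by 1.77%, or by -1.21% without *Mrps21*.

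**Figure D3:**
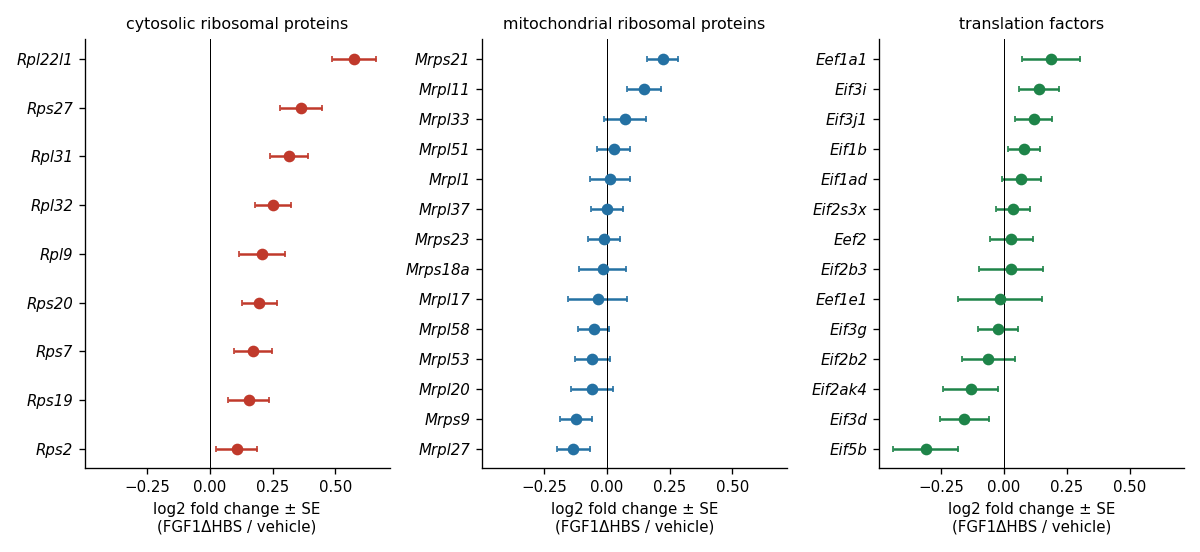
Log2 fold change with its standard error for the genes described, by gene group, with FGF1ΔHBS minus vehicle on the axis. The cytosolic genes lie right of 0, from 0.11 for *Rps2* to 0.57 for *Rpl22l1*, while the mitochondrial genes and the factors lie on both sides.

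Of the 14 translation factors, 8 had a higher and 6 a lower mean on the log2 scale with FGF1ΔHBS, against 45.2% and 54.8% of all genes tested. Their median log2 fold change was 0.03, from -0.31 to 0.19. At an unadjusted p under 0.05, 0 were higher and 1 was lower, against 7.10% and 10.0% of all genes tested. The adjusted p ran from 0.287 to 0.98 (limma). Per length, *Eef1a1* and *Eef2* are the most abundant of all 38 genes, and the initiation factors are far lower.

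*Eef1a1* (ENSMUSG00000037742), which brings aminoacyl-tRNA to the ribosome, was at 452, 467 and 364 FPKM with vehicle and at 491, 444 and 522 FPKM with FGF1ΔHBS. *Eef2* (ENSMUSG00000034994), which moves the ribosome along the mRNA by a codon at a time, was at 516, 451 and 441 FPKM and at 452, 499 and 484 FPKM. Both overlapped widely between the groups, with log2 fold changes of 0.19 and 0.03 (limma adjusted p = 0.455 and 0.896). *Eef1a2*, the form of striated muscle, was not analysed here. *Eef1e1*, which despite its symbol is a scaffold of the multi-tRNA-synthetase complex, was at 5.05 to 8.38 FPKM over all mice and differed by -0.01.

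*Eif5b* (ENSMUSG00000026083, chr1:37998010-38055579, plus strand), the GTPase that joins the ribosomal subunits at the start codon, was the factor with the lowest p. It was at 19.0, 19.5 and 16.6 FPKM with vehicle and at 17.6, 12.4 and 14.02 FPKM with FGF1ΔHBS. FGF1ΔHBS replicate 1 lay above vehicle replicate 3, so the groups overlapped (log2 fold change -0.31, SE 0.13, limma adjusted p = 0.287). Its deposited locus runs 74222 bases past the annotated gene.

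The 4 measured subunits of eIF3, the scaffold that recruits the small subunit to mRNA, had differences of both signs. *Eif3i* was at 46.2, 49.2 and 41.1 FPKM with vehicle and at 51.1, 49.5 and 49.6 FPKM with FGF1ΔHBS, without overlap (log2 fold change 0.14, limma adjusted p = 0.41). *Eif3d* was at 19.8, 21.2 and 17.6 FPKM and at 18.6, 15.6 and 17.9 FPKM, with overlap (-0.16). *Eif3j1* and *Eif3g* differed by 0.12 and -0.02, also with overlap.

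For eIF2, which carries the initiator tRNA, the gamma subunit gene *Eif2s3x* was at 25.4 to 26.8 FPKM with vehicle and at 26.0 to 28.7 FPKM with FGF1ΔHBS. The genes of its exchange factor, *Eif2b2* and *Eif2b3*, differed by -0.06 and 0.03. *Eif2ak4*, which encodes the amino acid sensor GCN2, a kinase that holds eIF2 inactive, was the lowest of the 38 genes. It was at 1.69, 2.13 and 1.70 FPKM with vehicle and at 1.65, 1.44 and 1.67 FPKM with FGF1ΔHBS (log2 fold change -0.13, limma adjusted p = 0.573). The groups of *Eif2ak4* did not overlap, by a margin of less than 0.1 FPKM. *Eif1b*, a relative of the start codon selection factor eIF1, and *Eif1ad*, which carries an eIF1A-like domain, differed by 0.08 and 0.07 with overlap. The cap-binding factors of the Eif4 family were not analysed here.

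The genes that build ribosomes and those that regulate translation were taken from lists of the wider pathway, and no gene of these lists passed the adjusted threshold (limma). Of 76 genes for ribosome assembly and RNA polymerase I, 10 were in the table, and 8 of the 10 were lower with FGF1ΔHBS, against 54.8% of all genes tested. Their median log2 fold change was -0.19. At an unadjusted p under 0.05, 4 were lower, against 10.0% of all genes tested, and 0 higher, against 7.10%. *Rrp12*, needed for export and maturation of ribosomal subunits, was at 3.92, 4.53 and 4.26 FPKM with vehicle and at 3.20, 2.13 and 2.37 FPKM with FGF1ΔHBS. The groups did not overlap (log2 fold change -0.57, limma adjusted p = 0.116). *Bop1* and *Noc4l*, for the large and the small subunit, differed by -0.27 each without overlap, and *Ubtf*, the upstream binding factor of RNA polymerase I, by -0.28 with overlap. The nucleolar genes *Nop10* and *Nol11* had means slightly above vehicle, by 0.00 and 0.08.

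Of 44 genes for mTOR signalling, the stress response, and termination or recycling of ribosomes, 10 were in the table. Of these, 8 were lower on average, against 54.8% of all genes tested. The median log2 fold change of the 10 was -0.12, beside -0.02 over all genes tested. There were 4 lower and 0 higher at an unadjusted p under 0.05, against the same 10.0% and 7.10%. *Atf4*, the transcription factor of the integrated stress response, was at 48.8, 42.5 and 46.2 FPKM with vehicle and at 39.1, 32.5 and 30.9 FPKM with FGF1ΔHBS, without overlap (log2 fold change -0.42, limma adjusted p = 0.116). *Mtor*, the kinase itself, was at 9.43, 9.85 and 9.51 FPKM and at 8.34, 8.22 and 7.57 FPKM, also without overlap (-0.23, limma adjusted p = 0.173). *Ppp1r15b*, a phosphatase subunit that restores eIF2, and *Abcf1*, which acts with eIF2, were the others at an unadjusted p under 0.05, at -0.20 and -0.16. In both lists 8 of 10 stayed lower under median ratio scaling and quantile normalization, and the number at an unadjusted p under 0.05 was as low as 1 when single mice were left out. With the replicate number as a block it was 3 for ribosome assembly and 2 for the control of translation. With GC content and length regressed out, a setting added after seeing the data, it was 1 in each list, 9 and 6 of 10 were lower, and the medians were -0.14 and -0.07. With a minimum mean of 5 FPKM, 6 genes of ribosome assembly remained, 4 of them lower and 2 lower at an unadjusted p under 0.05. For the control of translation 8 remained, 7 of them lower and 4 lower at that p. Over all genes 140 were lower at that p in this setting.

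**Figure D4:**
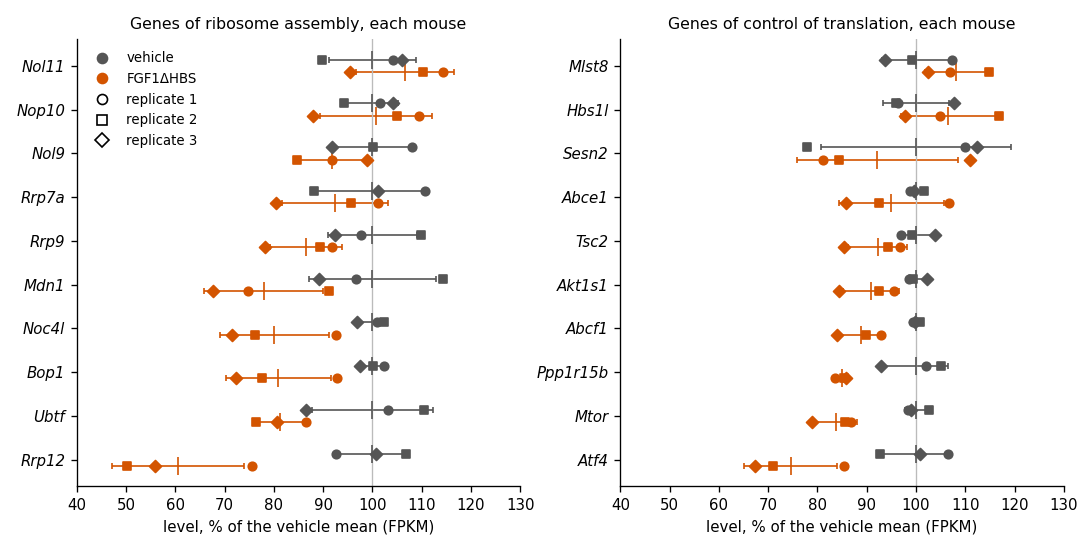
Levels of the genes of ribosome assembly and of the control of translation in the table, as a percentage of the vehicle mean of each gene, with 1 point per mouse and the mean ± SD of each group. The FGF1ΔHBS points of *Rrp12*, *Bop1*, *Noc4l*, *Rrp9*, *Atf4*, *Mtor*, *Akt1s1*, *Tsc2*, *Ppp1r15b* and *Abcf1* lie below all vehicle points. Of all genes tested, 13.6% did so.

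Of a list of 40 genes for aminoacyl-tRNA synthetases, which charge tRNAs, and the scaffolds of their complex, 6 were in the table (the scaffold *Eef1e1* among them). Their log2 fold changes were above 0 in 3 and below 0 in 3, against 45.2% and 54.8% of all genes tested. The median was 0.00, and none was at an unadjusted p under 0.05. *Mtif2*, which starts translation in mitochondria and was the 1 gene of 16 mitochondrial translation factors in the table, was at 14.6 to 14.8 FPKM with vehicle and at 14.3 to 16.7 FPKM with FGF1ΔHBS. Of subunit proteins whose symbols the rule does not take, the table held *Gadd45gip1*, of the large mitochondrial subunit, which differed by -0.06.

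Some markers of other cell types did not overlap between the groups, as was so for 24.3% of all genes tested. No marker tested had an adjusted p under 0.05 (limma), with 0.154 for *Dcn* and 0.116 for *Acta2*. The fibroblast gene *Dcn*, the 1 marker of 8 in the table, was at 154 to 288 FPKM with vehicle and at 368 to 431 FPKM with FGF1ΔHBS. Of 7 smooth muscle and pericyte markers, *Acta2* was at 10.3 to 14.1 FPKM with vehicle and at 17.5 to 27.3 FPKM with FGF1ΔHBS, and *Pdgfrb* overlapped, for summed levels of 18.7 to 27.6 and 26.4 to 37.6 FPKM. The endothelial markers *Tie1* and *Emcn*, 2 of 8, overlapped, with sums of 21.7 to 46.7 and 24.9 to 42.0 FPKM. *Ptprc* of the leukocytes, 1 of 11, was at 1.32 to 3.43 FPKM with vehicle and at 1.01 to 1.21 FPKM with FGF1ΔHBS. The erythroid *Hbb-bt*, 1 of 7, was at 192 to 397 and 118 to 204 FPKM. The 4 cardiomyocyte markers of 14 summed to 10900 to 13200 and 11600 to 13200 FPKM. Among them *Nppa* was at 62.2 to 430.5 FPKM with vehicle and at 22.7 to 75.4 FPKM with FGF1ΔHBS, with overlap (log2 fold change -1.91, limma adjusted p = 0.231). The adipocyte marker *Adipoq*, 1 of 7, was at 0, 0.217 and 0 FPKM with vehicle and at 1.21, 0.246 and 0.648 FPKM with FGF1ΔHBS, low in all mice but without overlap. The liver marker *Ahsg*, 1 of 7, was at 1.49 to 11.9 and 4.44 to 11.1 FPKM, and the kidney marker *Slc12a1*, 1 of 8, was at 0.844 FPKM or less. Their part in the differences of the cytosolic ribosomal genes was not tested.

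Across 2039 genes, which are not independent replicates, the log2 fold change had a Spearman rho of -0.144 with the length of the longest transcript and of -0.222 with its GC content. The median longest transcript was 1072 bases for the cytosolic genes, 2508 for the mitochondrial genes, 2554 for the factors and 3338 for all genes tested. Among other protein-coding genes, the 66 with transcripts under 1000 bases had a median log2 fold change of 0.10, and the 757 of at least 4000 bases one of -0.05. Of the genes described here with transcripts under 1000 bases, the cytosolic *Rps27*, *Rpl32* and *Rps7* were at 0.36, 0.25 and 0.17, and the 4 mitochondrial genes at 0.22 (*Mrps21*), -0.06 (*Mrpl53*, *Mrpl20*) and -0.13 (*Mrpl27*). With GC content and length regressed out, a setting added after seeing the data, all 10 cytosolic genes were above 0 with a median of 0.15. Of them, *Rpl22l1*, *Rps27* and *Rpl31* were at an unadjusted p under 0.05. Under this setting *Rpl22l1* was at 0.47, *Rpl31* at 0.17, *Rpl32* at 0.15, *Rps20* at 0.12 and *Rps7* at 0.06, and the mitochondrial *Mrpl27* and *Mrps9* at -0.26 and -0.27. *Rpl9* and *Rps19*, with longest transcripts of 2690 and 2657 bases, hardly moved, at 0.20 and 0.16. The lengths are those of the longest annotated transcripts, which need not be the ones measured, so the setting may not correct each gene alike.

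**Figure D5:**
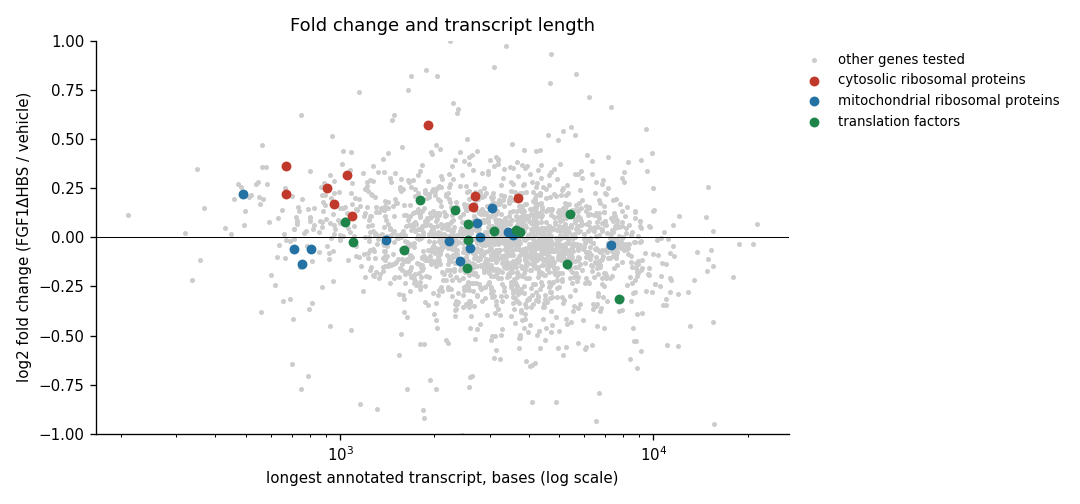
Log2 fold change, FGF1ΔHBS minus vehicle, against the length of the longest annotated transcript (log axis) for the genes tested, with the 3 gene groups in colour. The vertical axis ends at 1 in both directions, which leaves out 23 genes, and the cytosolic genes all lie above 0, mostly at shorter transcripts.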

How the data were processed

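Hearts of 3 vehicle and 3 FGF1ΔHBS *db/db* mice were analysed by RNA-Seq. The authors trimmed the reads with Trimmomatic and deposited FPKM values, normalized to transcript length and mapped fragments, for each gene and library. The submitters' processing notes name Bowtie 0.12.2, HISAT2 2.0, StringTie 1.3.0 and the build mm8, without roles. Start and end of 21 of the 38 genes match GENCODE M21 (GRCm38) exactly, and that annotation is used here. For 11 genes the deposited locus runs over 100 bases past the gene, so reads from beyond it may be included. The study's methods and the labels differ on single-end or paired-end reads, and the labels' library text speaks of an adipose type. The table analysed here ends partway through a row. FPKM gives no depth. Steps of values under 0.3 FPKM gave relative depths of 1.0 to 1.2, and no counting interval was computed.

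Values were transformed to log2(FPKM + 1), and genes under a mean of 1 FPKM were dropped. The remaining 2041 were fitted with limma 3.58.1 in R 4.3.3 (eBayes with trend, no pairing). Adjusted p-values are Benjamini-Hochberg values over these genes (threshold 0.05). The fit was tested on simulated data. Single genes were also compared by two-sided exact permutation. Of 56 rows matching the symbols, 17 pseudogenes and 1 S6 kinase were left out. The symbol rule, the lists and the alternatives were chosen with earlier results of these data known. Named genes are, in each gene group, up to 5 in each direction with the smallest p, the 3 most abundant, and fixed families (paralogues, cap-binding factors, eIF2 and its kinases, elongation factors). Other genes are named to give full account of a group. A cytosolic gene taken by the rule is not reported here by name and remains in every fit and count. The settings varied were the pseudocount (0.1), the filter (none, or 5 FPKM), genes listed at 0 (left out), median ratio scaling, quantile normalization, eBayes without trend or robust, a replicate block and leaving out each mouse.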

Additional observations from a re-analysis of the deposited data

How the results depend on the processing

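The number of the 38 genes with an adjusted p under 0.05 (limma) was 0 under each alternative, except that it was 1 (*Rpl22l1*) without vehicle replicate 1 and without vehicle replicate 3, for a range of 0 to 1. Over all genes it was 2, and 4 with a pseudocount of 0.1, 5 with robust eBayes, 1 without trend, with quantile normalization or with median ratio scaling, and 0 without the filter (214 higher and 274 lower at an unadjusted p under 0.05). Leaving out a mouse gave 0 to 84, with 84 without vehicle replicate 3. At an unadjusted p under 0.05, 145 genes were higher and 204 lower, compared with 185 and 180 after median ratio scaling and 180 and 173 after quantile normalization. The cytosolic count of 5 was 8 with median ratio scaling, 3 with GC content and length regressed out (added after seeing the data), and 4 to 10 without single mice, 10 without vehicle replicate 1. Over all genes, 156 were higher without vehicle replicate 1 and 124 with the regression. The mitochondrial count of 1 higher was 2 with no filter, median ratio scaling or quantile normalization and 0 with the regression, and that of 0 lower was 1 with no filter and 2 with the regression. The factor count of 0 higher was 1 with median ratio scaling, and that of 1 lower was 0 with no filter, quantile normalization or no trend, and 0 to 2 without single mice. The median log2 fold change moved from 0.176 to 0.305 for cytosolic and from -0.0414 to 0.0209 for mitochondrial genes without single mice, and that of the factors, 0.0283, from -0.0113 (without vehicle replicate 3) to 0.0681 (without vehicle replicate 1).

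The replicate number did not pair the mice (correlations of same-numbered mice -0.01, -0.16 and -0.22). With the replicate block, 0 genes had an adjusted p under 0.05 (111 higher and 158 lower unadjusted), the cytosolic count stayed 5, the mitochondrial 1, and the factor count of lower genes was 0.

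The direction was the same under all 16 alternatives for 24 genes and turned in 14, whose differences were from -0.06 to 0.11. With median ratio scaling *Eif3g* turned to 0.00326, *Eef1e1* to 0.00998, *Mrps23* to 0.0158 and *Mrps18a* to 0.0113. With quantile normalization *Rps2* turned to -0.0464, *Eef2* to -0.0425, *Eef1e1* to 0.0408, *Mrpl17* to 0.00298 and *Mrps18a* to 0.00113. With the regression *Eif2s3x* turned to -0.0041, *Mrpl51* to -0.00569, *Mrps18a* to 0.0243 and *Mrpl1* to -0.0647. Without single mice the ranges crossed 0 for *Eif2b2* (-0.158 to 0.00638), *Eif2s3x* (-0.00864 to 0.0595), *Eef2* (-0.0135 to 0.0989), *Eif3g* (-0.0718 to 0.0336), *Eif2b3* (-0.105 to 0.117), *Eef1e1* (-0.183 to 0.134), *Mrpl20* (-0.121 to 0.0168), *Mrpl51* (-0.00421 to 0.0763), *Mrpl17* (-0.119 to 0.0683), *Mrps23* (-0.0371 to 0.028), *Mrps18a* (-0.0799 to 0.0592), *Mrpl1* (-0.0353 to 0.0557) and *Mrpl37* (-0.0284 to 0.02). The cause of these shifts was not tested. FPKM without counts leaves the error of low genes such as *Eif2ak4* unknown.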

Other observations

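The table also holds 17 pseudogene rows, 16 of ribosomal proteins and 1 of a translation factor, which the symbol rule leaves out and whose reads can belong to the parent genes. Of these, 3 had a mean of at least 1 FPKM, and the highest mean of the others was 0.502 FPKM. *Mrpl23-ps1* was at 3.34, 3.71 and 3.11 FPKM with vehicle and at 4.87, 4.42 and 4.57 FPKM with FGF1ΔHBS. The groups did not overlap (log2 fold change 0.36, SE 0.092, limma adjusted p = 0.12). *Rpl17-ps10* was at 8.35, 7.04 and 8.13 FPKM with vehicle and at 10.3, 8.26 and 8.38 FPKM with FGF1ΔHBS. *Rps13-ps1* was at 8.31, 5.64 and 6.97 FPKM and at 9.08, 8.22 and 8.28 FPKM. Both overlapped between the groups.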
